A study of Mus musculus with 24 samples.

Results

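The cytosolic ribosomal proteins are the proteins of the small and the large ribosomal subunit that translate nuclear mRNA in the cytoplasm. Their mRNAs were examined in 24 whole mouse hearts. Genes were taken by symbol, as every single-gene row named Rpl or Rps followed by its number, Rplp0 to Rplp2 and Rpsa, with Rpl3 and Rpl3l left out. This gave 79 genes of 19660 rows with values, 32 of the small and 47 of the large subunit. The row that joined Rpl13a with an overlapping microRNA and a small nucleolar RNA was also left out. Of the 79 genes, 78 passed the minimum of 1 FPKM in at least 6 hearts and were tested. The exception was Rpl39l, a paralog of Rpl39 best known from testis, which was at 0 to 0.228 FPKM in WT hearts. FPKM is a fragment count normalised for transcript length and library size, so levels of different genes can be compared.

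All mice were adult, untreated and on the C57BL/6J strain, and there were 6 hearts per genotype, 3 from males and 3 from females. WT mice carried no transgene. OGA_TG mice carried a heart-specific transgene for OGA, the enzyme that removes O-linked N-acetylglucosamine (O-GlcNAc) from proteins, and OGT_TG mice one for OGT, the enzyme that adds it. OGT_TG_x_OGA_TG mice, called double transgenic here, carried both. The promoter that drives the transgenes and the age in weeks are not given in the sources used here. The transgene rows summed to 0.4 to 3.4 FPKM in WT, 3091 to 5209 in OGA_TG, 715 to 2691 in OGT_TG and 7051 to 8897 FPKM in double transgenic hearts. The depth, estimated from the steps between the lowest values, was 11.4 to 17.8 M fragments per heart. Of the cardiomyocyte markers, 8 of 10 had a row, none of them at 0 in all hearts. OGT_TG replicates 3 and 6 had the lowest transgene levels of their genotype, 1104 and 715 FPKM. Counts of members called that rest on OGT_TG are therefore also given without them. Results for cell markers and for other gene lists are given with all hearts only.

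A ribosome holds a single copy of nearly every ribosomal protein, so cells make these proteins in step with each other and with ribosomal RNA. The mRNAs are among the most abundant of a cell and are short. Most begin with a C followed by a run of pyrimidines, the terminal oligopyrimidine (TOP) motif, through which the mTOR pathway and the binding protein Larp1 act on their translation. In the heart, ribosome content sets the capacity for protein synthesis and increases when the muscle grows.

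The starts of these genes were examined in sequence. RefSeq promoter windows on the build GRCm38.p6 were found for 60 of the 79 genes. The stretches below run from 40 bases before to 30 bases from the annotated transcription start, 5′ to 3′ on the strand of the gene. Capitals mark runs of 8 or more bases that begin with C and hold only C and T. Every gene printed here holds such a run, which not all 60 do. A run was marked wherever it lay in the stretch. In Rpl5 and Rps27l the marked runs end before the annotated start, so a marked run is not by itself a TOP motif. The first 5 genes are members that were lower in double transgenic hearts, Rps12 and Rps27l are members that were higher in OGT_TG hearts, and Rplp2 is a member that varied widely within each genotype.
Rpl38, chr11:114668540-114668609, strand +: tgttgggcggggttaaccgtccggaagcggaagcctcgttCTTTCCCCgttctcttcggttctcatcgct
Rpl14, chr9:120571477-120571546, strand +: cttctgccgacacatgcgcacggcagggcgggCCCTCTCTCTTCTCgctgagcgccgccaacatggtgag
Rpl15, chr14:18270957-18271026, strand -: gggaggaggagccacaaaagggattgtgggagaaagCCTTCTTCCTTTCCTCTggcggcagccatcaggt
Rpl39, chrX:37085193-37085262, strand -: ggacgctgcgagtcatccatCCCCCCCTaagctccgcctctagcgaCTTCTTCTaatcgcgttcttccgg
Rpl5, chr5:107900488-107900557, strand +: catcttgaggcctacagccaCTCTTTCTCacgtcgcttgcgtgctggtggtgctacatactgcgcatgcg
Rps12, chr10:23787180-23787249, strand -: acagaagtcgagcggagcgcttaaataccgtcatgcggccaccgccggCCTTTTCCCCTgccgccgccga
Rplp2, chr7:141447611-141447680, strand +: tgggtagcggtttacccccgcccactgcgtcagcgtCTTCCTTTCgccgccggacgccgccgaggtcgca
Rps27l, chr9:66946046-66946115, strand +: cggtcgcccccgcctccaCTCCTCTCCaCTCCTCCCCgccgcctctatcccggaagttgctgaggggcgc

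Such a run occurred in 36 of the 60 members, or 60.0%, against 23.8% of the promoters of all 27025 genes in the table and 25.2% of those of tested rows. The hexamer CGGAAG, the core of sites bound by ETS factors, was found on either strand within 300 bases around the start in 42 of the 60 members, or 70.0%. It was present in 18.8% of all genes and in 34.9% of the 8452 tested rows with a promoter. The members with a run had a median double transgenic minus WT difference of -0.24 log2 and those without it -0.21, so the difference was of similar size in both. Over all tested rows the medians were -0.03 with a run and -0.04 without.

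In WT hearts the members spanned a wide range of levels per kilobase. The tested members ran from 19.3 FPKM for Rpl7l1 to 898 FPKM for Rps27, with a median of 355 FPKM. Among the highest were Rps27 with 898 ± 80.0 FPKM, Rpl23a with 674, Rps29 with 619 ± 164 and Rpl41, which encodes the shortest member, with 614 ± 122 FPKM (mean, with the SD where given, n = 6 each). The lowest of the tested members were Rpl7l1, Rps15a with 41.4 FPKM, Rpl22l1 with 51.7, Rpl22 with 68.6 and Rpl15 with 76.3 FPKM. The paralogs Rpl7l1 and Rps27l stood far below their parent genes, at 19.3 against 511 FPKM for Rpl7 and 91.4 against 898 FPKM for Rps27. The paralog Rpl22l1 and its parent Rpl22 were closer, at 51.7 and 68.6 FPKM. Ribosomal protein genes have many processed copies in the genome. GENCODE M21 lists 294 pseudogenes named after them, and how reads shared with such copies were assigned is not given in the sources used here, so single levels are uncertain to that extent.

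Together the members held 26953 to 30500 FPKM in WT, with a median of 27662. The sum was 25267 to 27949 FPKM in OGA_TG with a median of 26480, and 25109 to 30660 FPKM in OGT_TG with a median of 28503. In double transgenic hearts it was 23286 to 26837 FPKM with a median of 24214. In this sum all 6 double transgenic hearts lay below all 6 WT hearts, the highest narrowly, and they overlapped the hearts of the other 2 genotypes in part. As a share of the FPKM of all rows, the members made up 5.61% ± 0.27 in WT, 5.39% ± 0.15 in OGA_TG, 5.76% ± 0.40 in OGT_TG and 5.07% ± 0.15 in double transgenic hearts (SD, n = 6 each). By this share the double transgenic hearts, at 4.91% to 5.35%, overlapped the WT hearts, at 5.31% to 5.96%. In whole hearts, fewer cells of a type and less RNA per cell cannot be told apart.

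**Figure D1:**
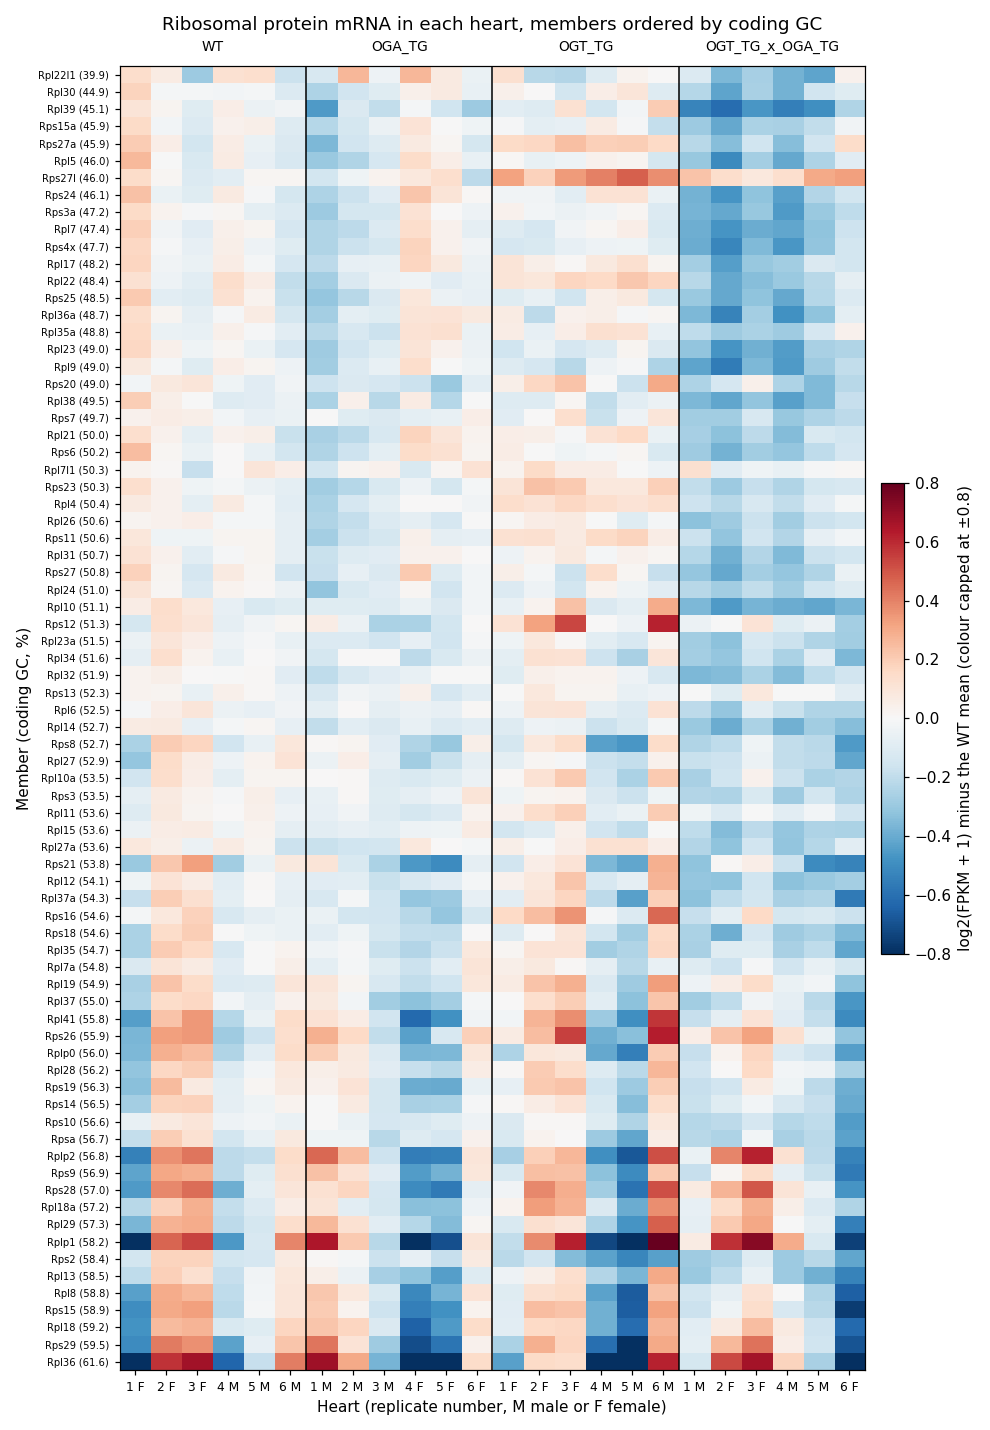
Level of the tested ribosomal protein mRNAs reported here (rows, ordered by the GC content of the coding sequence, in %) in each heart (columns, grouped by genotype), as log2(FPKM + 1) minus the WT mean. Double transgenic hearts are blue over most of the upper and middle rows, while the lowest, GC-rich rows change from red to blue between hearts of the same genotype.

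The main comparison was of double transgenic with WT hearts. These groups share no number at the start of their sample titles, so genotype and title number cannot be told apart here. Ribosomal protein mRNAs were lower across both subunits: 39 of the 78 tested members fell and 1, Rps27l, rose (limma, adjusted p under 0.05 over all 12020 tested rows). Over all tested rows 15.6% were called in either direction and 11.4% were called lower, so the members' count lay above both shares. On the log2(FPKM + 1) scale used for every difference, the median difference of the members was -0.22 log2, against -0.04 for all rows, and 72 of 78 members lay below 0. Of the small subunit 15 of 32 members fell, and of the large subunit 24 of 46. For higher calls the share of all rows was 4.21%. Under 4 other scalings of the libraries the count of members called was 32 with median-of-ratios scaling, 25 at an equal sum of FPKM, 22 after quantile normalization and 21 at an equal sum without transgene rows and members. Of the 40 calls, 19 held under all 4 and 35 with each heart left out in turn.

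Rpl39, a small protein that lines the exit tunnel for the growing peptide, had the largest fall. It was 335 to 385 FPKM in WT with a median of 358, and 236 to 304 FPKM in double transgenic hearts with a median of 252. The groups did not overlap, and the level fell by 28.3% (-0.48 log2, SE 0.07, limma adjusted p = 0.000105). The double transgenic values were also below the OGT_TG hearts, at 324 to 414 FPKM, but overlapped the OGA_TG hearts, at 262 to 355 FPKM.

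Rpl10, a protein that joins the large subunit late in its assembly near the tRNA sites, was at 478 to 573 FPKM in WT with a median of 520. OGA_TG hearts had 480 to 513 FPKM and OGT_TG hearts 481 to 639. Double transgenic hearts had only 379 to 406 FPKM, a narrow range that lay below every heart of the other genotypes. The fall against WT was 23.9% (-0.39 log2, SE 0.06, limma adjusted p = 0.00015).

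Rpl14 and Rpl15, both of the large subunit, also separated fully. Rpl14 had 250 to 275 FPKM in WT, 229 to 252 in OGA_TG, 233 to 259 in OGT_TG and 199 to 220 FPKM in double transgenic hearts. Every double transgenic heart lay below the lowest heart of each other genotype, and Rpl14 fell by 0.33 log2 against WT (SE 0.04, limma adjusted p = 1.42e-05). Rpl15, whose human gene is mutated in Diamond-Blackfan anaemia, had 72.4 to 79.9 FPKM in WT and 59.8 to 66.1 FPKM in double transgenic hearts. With Rpl10 these are among the members with all 6 double transgenic hearts below all 18 others, 4 in all, a pattern found in 0.516% of all tested rows.

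**Figure D2:**
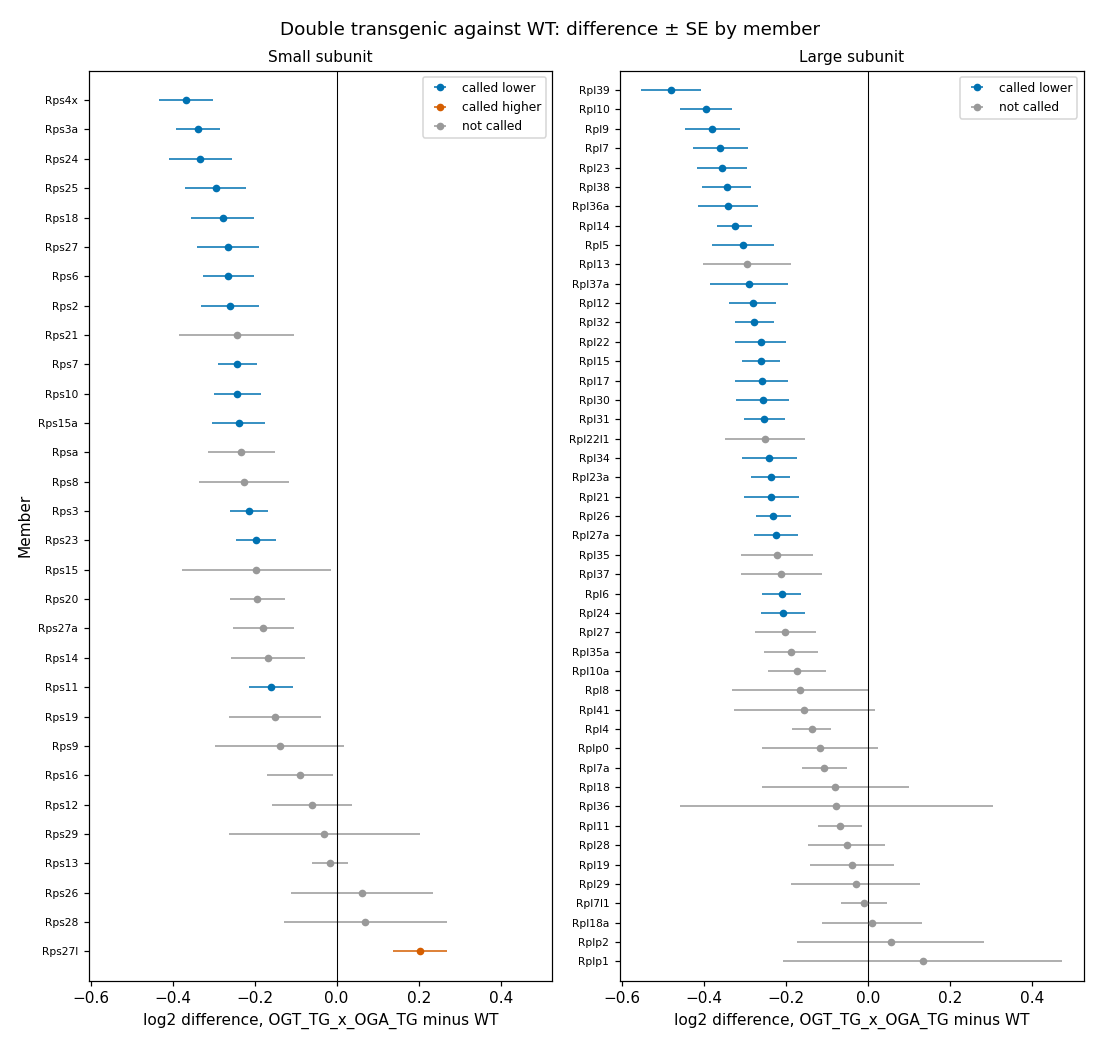
Difference between double transgenic and WT hearts for the tested members reported here, in log2(FPKM + 1), with its standard error from limma (6 hearts per genotype). Points to the left of 0 are lower in double transgenic hearts; the largest fall is that of Rpl39 at -0.48, and Rps27l is the member called higher.

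The other members with large falls were Rpl9, Rps4x, Rpl7, Rpl23, Rpl38, Rpl36a and Rps3a. Their differences from WT ran from -0.38 log2 for Rpl9 to -0.34 for Rps3a, with standard errors of 0.05 to 0.07 and limma adjusted p-values of 0.000136 to 0.00268. In FPKM, Rpl9 was 462 to 524 in WT and 336 to 432 in double transgenic hearts, and Rps4x was 493 to 592 and 366 to 477. Neither gene overlapped between these groups. Of all tested members, 23 lay below WT in every double transgenic heart, against 6.57% of all tested rows. No member lay above WT in every double transgenic heart, which 2.79% of all rows did.

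By role, calls were made in most groups. Of the 10 proteins around the exit tunnel, 7 fell, with a median of -0.25 log2. Of the 4 proteins at the mRNA entry and decoding site, Rps2, Rps3 and Rps23 fell. None of the 4 at the mRNA exit side, among them Rps26 and Rps28, passed the test, and their median was -0.003 log2. Of the pair that binds 5S ribosomal RNA and the p53 regulator Mdm2, Rpl5 fell by 0.30 log2 (SE 0.08, limma adjusted p = 0.00712), while Rpl11 differed by -0.07 (SE 0.05, adjusted p = 0.45). Rps6, the substrate of S6 kinase, fell by 0.26 log2 (SE 0.06, limma adjusted p = 0.00507). Rpsa, also known as a laminin receptor, differed by -0.23 (SE 0.08, adjusted p = 0.057). Of 18 members whose human genes are linked to Diamond-Blackfan anaemia, 9 fell, with a median of -0.23 log2, close to the -0.22 of all members.

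The 3 proteins of the stalk, which recruits the elongation factors, gave no call in any comparison. Rplp1 was 163 to 418 FPKM in WT and 171 to 478 FPKM in double transgenic hearts. The spread within each genotype exceeded any difference between them, and the standard error of the Rplp1 difference was 0.34 log2, against 0.04 for Rpl14. Rplp0 and Rplp2 had standard errors of 0.14 and 0.23 log2. For Rplp1 and Rplp2 a difference of the size seen in Rpl39 was not detectable in 6 hearts per genotype.

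Rps27l, a paralog of Rps27 known as a p53 target, moved against the rest. It was 84.5 to 101 FPKM in WT with a median of 92.2, 78.7 to 100 in OGA_TG, 104 to 127 in OGT_TG with a median of 117, and 97.0 to 115 in double transgenic hearts with a median of 104. All OGT_TG hearts lay above all WT hearts, and the double transgenic hearts overlapped WT at the edge. The rise against WT was 0.20 log2 in double transgenic hearts (SE 0.06, limma adjusted p = 0.034) and 0.35 in OGT_TG hearts (SE 0.06, adjusted p = 0.00023). The double transgenic call was lost without any 1 of 7 hearts, with adjusted p up to 0.082. Its parent Rps27 fell against WT by 0.27 log2 (SE 0.08, limma adjusted p = 0.019), a call lost without either of 2 hearts (adjusted p up to 0.056).

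Against OGT_TG hearts, 43 of 78 members fell and none rose in double transgenic hearts. Of all tested rows, 32.3% were called, 27.2% lower and 5.02% higher, against 55.1% of the members called lower. The median of the members was -0.22 log2 and that of all rows -0.11. The largest falls were those of Rpl39 at -0.47 log2, Rpl10 at -0.44 and Rpl22 at -0.41 (SE 0.06 to 0.07, limma adjusted p = 3.49e-05 to 7.85e-05). Rps27a, which encodes a fusion of ubiquitin with a small subunit protein, fell by 0.36 log2 (SE 0.07, limma adjusted p = 0.000968). In 24 members all double transgenic hearts lay below all OGT_TG hearts, and in none above; 8.77% and 1.12% of all rows did so. Median-of-ratios scaling, which moves the median of all rows to -0.01, left 18 falls and 1 rise among the members, and 18 of the 43 calls held under all 4 other scalings. Without OGT_TG replicates 3 and 6, 37 members fell, with a median of -0.15 log2.

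Against OGA_TG hearts, 27 members fell and Rps27l rose by 0.23 log2 (SE 0.06, limma adjusted p = 0.017, up to 0.051 with a heart left out). The share called over all rows was 18.1%, with 9.77% lower and 8.33% higher, against 34.6% of the members called lower. In 8 members all double transgenic hearts lay below all OGA_TG hearts and in none above, against 5.73% and 5.63% of all rows. The median of the members was -0.13 log2, and that of all rows 0.01. Rpl9 fell by 0.32 log2 (SE 0.07, limma adjusted p = 0.00151), and Rpl22l1 by 0.32 (SE 0.10, adjusted p = 0.025, up to 0.070 with a heart left out). The 3 comparisons share the double transgenic hearts. In all 3 of them 26 members were called lower, against 2.73% of all rows, and 30 members were called in none. Of the 28 calls against OGA_TG, 19 held with each heart left out in turn and 15 under all 4 other scalings. Of the 26 members, Rps10 lost its call against OGA_TG without any 1 of 17 hearts, Rpl27a of 16, Rps27 of 15, Rpl5 of 12, Rpl23a of 11, Rpl12 of 3 and Rpl6 of 1, with adjusted p up to 0.137. The 26 include Rpl5, Rpl6, Rpl7, Rpl9, Rpl10, Rpl12, Rpl14, Rpl15, Rpl17, Rpl23, Rpl23a, Rpl27a, Rpl31, Rpl32, Rpl36a, Rpl38 and Rpl39 of the large subunit. Of the small subunit they include Rps3, Rps3a, Rps4x, Rps6, Rps7, Rps10, Rps24 and Rps27. Among them Rps24, whose human gene is linked to Diamond-Blackfan anaemia, was 505 to 655 FPKM in WT and 401 to 502 FPKM in double transgenic hearts. Rps3a was 503 to 602 FPKM in WT and 396 to 471 FPKM in double transgenic hearts, and Rpl38, a protein linked to the translation of Hox mRNAs in mouse embryos, was 453 to 557 and 360 to 428 FPKM. In all 3 genes the double transgenic hearts lay below the WT hearts with no overlap.

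Markers of heart cells also differed between the genotypes, but not in the same order as the members. The summed level of the 8 cardiomyocyte markers with a row was 46237 to 51388 FPKM in WT and 39496 to 43274 FPKM in double transgenic hearts. Of them, 3 fell: Pln, the inhibitor of the sarcoplasmic calcium pump, the troponin Tnnt2 and Myoz2. In OGT_TG hearts the sum was 32464 to 43717 FPKM, with 6 of 8 lower than in WT. The 10 fibroblast markers summed to 1091 to 1302 FPKM in WT, 1796 to 2950 in OGT_TG and 1216 to 1627 in double transgenic hearts. All 10 rose in OGT_TG and 2, Gsn and Mfap5, in double transgenic hearts. Of all tested rows, 25.2% were called higher and 12.2% lower in OGT_TG against WT. In double transgenic hearts against WT the shares were 4.21% higher and 11.4% lower. The macrophage markers summed to 183 to 226 FPKM in WT, 239 to 561 in OGT_TG and 196 to 286 in double transgenic hearts. Of 8 tested endothelial markers, the receptor Kdr fell in double transgenic hearts against WT, and of 8 smooth muscle and pericyte markers, Acta2 rose and Abcc9 and Kcnj8 fell. No tested marker of B cells, T cells, neutrophils, erythroid cells, adipocytes or mesothelium was called there. Only 2, 1, 2, 1, 4 and 1 markers of these cell types were tested, in that order. None of the markers with a row was at 0 in every heart. Their part in the results for ribosomal protein mRNAs was not tested.

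**Figure D3:**
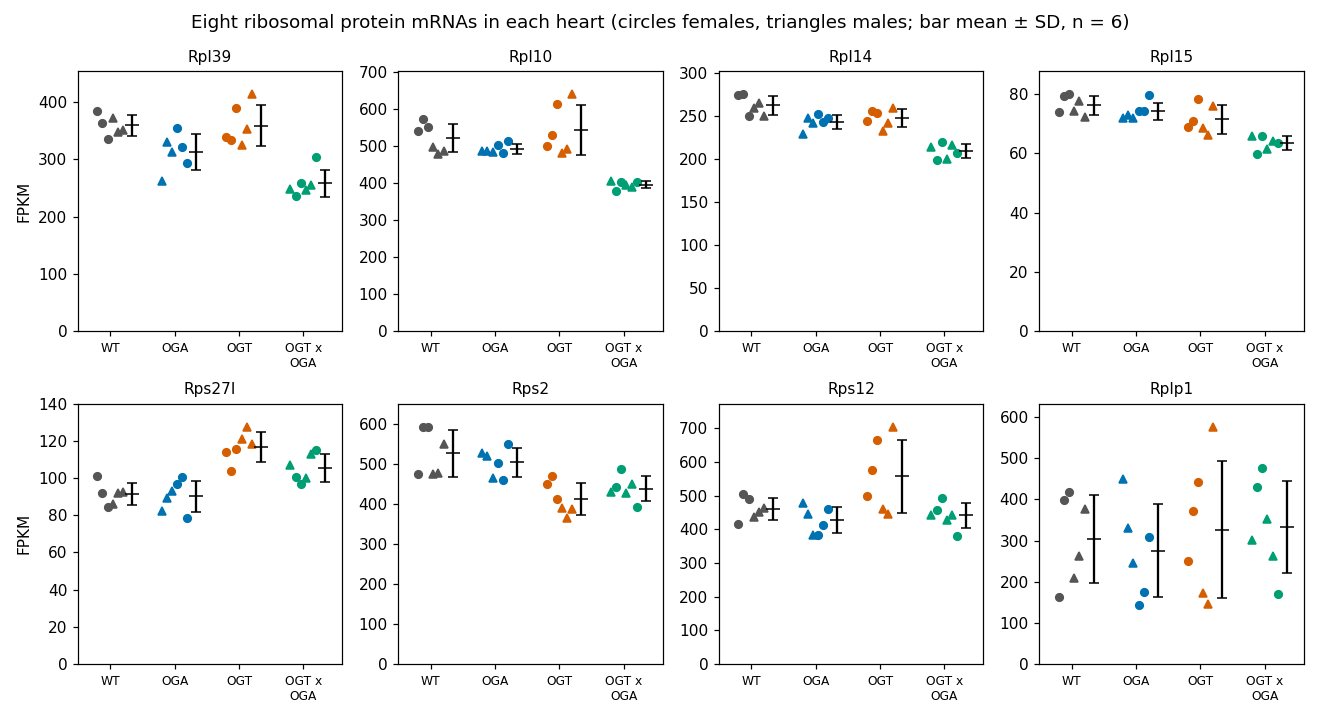
FPKM of 8 members in each heart, by genotype, on linear axes that start at 0, with the mean and SD of 6 hearts. Rpl39, Rpl10, Rpl14 and Rpl15 are lowest in double transgenic hearts, Rps27l is highest and Rps2 lowest in OGT_TG, and Rplp1 spans 163 to 418 FPKM within WT.

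Hearts with the OGT transgene alone did not show the broad fall. Against WT, 4 members rose and 2 fell in OGT_TG hearts, together 7.69% of the members, while 37.4% of all tested rows were called, 25.2% higher and 12.2% lower. All OGT_TG hearts lay above all WT hearts in 2 members and below them in 2, against 10.6% and 4.47% of all rows. The median of the members was -0.02 log2, against 0.06 for all rows. Rps2, at the mRNA entry site of the small subunit, was 475 to 593 FPKM in WT and 365 to 471 FPKM in OGT_TG, with no overlap. It fell by 0.35 log2 (SE 0.07, limma adjusted p = 0.000573), and by 0.33 without OGT_TG replicates 3 and 6 (adjusted p = 0.00369).

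Rps27l rose by 0.35 log2, as given above, and by about the same without OGT_TG replicates 3 and 6 (0.34 log2, limma adjusted p = 0.00125). Rps12 was 415 to 504 FPKM in WT and 445 to 703 in OGT_TG, and its 2 highest values were those of OGT_TG replicates 6 and 3, at 703 and 665 FPKM. It rose by 0.26 log2 (SE 0.10, limma adjusted p = 0.042), but by 0.10 without these 2 hearts (adjusted p = 0.39). Rps12 lost its call without any 1 of 7 hearts, WT replicates 1, 4, 5 and 6 and OGT_TG replicates 2, 3 and 6, with adjusted p up to 0.13. Rps23, at the decoding site, rose by 0.15 log2 (SE 0.05, adjusted p = 0.017), and its groups of 481 to 559 and 540 to 599 FPKM overlapped. Rpl4, whose protein reaches into the exit tunnel, rose by 0.14 log2 (SE 0.05, adjusted p = 0.030). All 6 OGT_TG hearts, at 477 to 496 FPKM, lay above the WT hearts, at 417 to 465 FPKM.

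Without OGT_TG replicates 3 and 6, the rises of Rpl4 and Rps23 were 0.13 log2 each (limma adjusted p = 0.071 and 0.066), and 1 member rose and 3 fell in all. Rpl4 also lost its call without WT replicate 3 or 6 or OGT_TG replicate 4 or 6, with adjusted p up to 0.078. When hearts with the same title number were treated as a replicate block, Rpl4 and Rps23 lost their calls (adjusted p = 0.059 and 0.055) and Rps27a gained one, at 0.18 log2 (adjusted p = 0.042). Under all 4 other scalings, only the calls of Rps2 and Rps27l held. The split of 4 higher and 2 lower members became 1 and 9 with median-of-ratios scaling, 8 and 2 at an equal sum of FPKM or after quantile normalization, 9 and 2 at an equal sum without transgene rows and members, and 7 and 5 with the GC and length trend of each heart taken off.

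In hearts with the OGA transgene alone, no member passed the test against WT, and 9 members had an unadjusted p under 0.05. Over all tested rows 0.358% were called, 0.3% lower and 0.0582% higher, so few calls were made in this comparison at all. In no member did the OGA_TG and WT hearts separate fully, against 1.44% of all rows with every OGA_TG heart below and 0.25% above. The members nevertheless lay to the same side: 77 of 78 had a difference below 0, with a median of -0.08 log2, against -0.05 and 69.7% below 0 for all rows. The lowest values were those of Rpl36 at -0.22 (SE 0.38), Rps21 at -0.22 (SE 0.14) and Rpl39 at -0.20 (SE 0.07, adjusted p = 0.31), and the only value above 0 was Rpl22l1 at 0.07 (SE 0.10). Between OGT_TG and OGA_TG hearts, 14 members were higher and 2, among them Rps2, were lower in OGT_TG. Of all rows 44.4% were called, 33.3% higher and 11.1% lower. In 6 members all OGT_TG hearts lay above all OGA_TG hearts and in none below, against 16.4% and 4.43% of all rows. With median-of-ratios scaling, which moves the median of all rows from 0.11 to 0.01, the split became 4 higher and 6 lower. Without OGT_TG replicates 3 and 6 it was 10 higher and 2 lower. The largest rises were Rps27l at 0.37 log2, Rps12 at 0.37 and Rps16 at 0.36 (SE 0.06 to 0.10, limma adjusted p = 8.11e-05 to 0.00442).

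The interaction asked whether the OGA transgene was accompanied by another difference in hearts that also carried the OGT transgene. It was called for 3 members, Rpl10 at -0.36 log2 (SE 0.09, limma adjusted p = 0.018), Rpl22 at -0.31 (SE 0.09, adjusted p = 0.036) and Rpl17 at -0.30 (SE 0.09, adjusted p = 0.046). This is 3.85% of the members, against 7.30% of all rows, 5.49% lower and 1.81% higher. Rpl22, for example, was 56.4 to 66.8 FPKM in OGA_TG and 59.5 to 75.4 in WT, which overlapped, but 51.3 to 64.97 in double transgenic and 72.9 to 79.6 in OGT_TG hearts, which did not. Rpl10 kept its call with each heart left out in turn, whereas Rpl22 lost it without any 1 of 13 hearts and Rpl17 without any 1 of 18, with adjusted p up to 0.068 and 0.086. The count of 3 rose to 7 without WT replicate 1, 9 without OGA_TG replicate 1, 5 and 7 without OGT_TG replicate 1 or 2, and 11 without double transgenic replicate 6. It was 1 without WT replicate 2, 3 or 6, OGA_TG replicate 3, 4, 5 or 6, OGT_TG replicate 3 or 6, or double transgenic replicate 2, 3 or 4, and 2 without both OGT_TG replicates 3 and 6. Sex gave no call among the members, with 5 at an unadjusted p under 0.05. In WT, OGA_TG and OGT_TG each title number held hearts of a single sex. Sex and title number can therefore not be told apart in these genotypes. In this comparison 0.266% of all rows were called, 0.166% lower and 0.0998% higher in males.

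The members also differed in how far they varied between hearts of the same genotype. The coefficient of variation over the 6 WT hearts ran from 2.75% for Rps13 to 41.5% for Rpl36, with a median of 7.95%. After Rpl36 the largest were those of Rplp1 at 35.2%, Rps29 at 26.5%, Rps28 at 26.0% and Rplp2 at 25.5%. The coding sequences of these 5 are rich in G and C, from 56.8% for Rplp2 to 61.6% for Rpl36, against a median of 52.6% over all members. Grouped by GC content after the values were seen, the 21 tested members at 55% and over had a median coefficient of variation of 18.9%, the 36 from 50% to under 55% one of 6.21%, and the 21 under 50% one of 7.08%.

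Rpl36 shows the pattern. It was 85.9, 231, 246, 98.8, 135 and 205 FPKM in WT replicates 1 to 6. Rplp1 was 163, 398, 418, 209, 263 and 377 FPKM in the same hearts. Both were low in replicates 1 and 4 and high in replicates 2, 3 and 6. Rpl5, from the group under 50% GC, was 269, 224, 206, 235, 214 and 206 FPKM, high where the other 2 were low.

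The same contrast held in each genotype and in rows that are no members. For every heart, the trend of log2 level with coding GC content was fitted over the other tested rows, against the WT mean. It ran from -0.18 to 0.12 log2 per 10 points of GC in WT, -0.20 to 0.12 in OGA_TG, -0.19 to 0.18 in OGT_TG and -0.12 to 0.18 in double transgenic hearts. In the double transgenic hearts with the lowest and the highest trend, replicates 6 and 3, the median of the GC-rich members was -0.51 and 0.16 log2 against the WT mean. The GC-poor members had medians of -0.14 and -0.30 log2 in these 2 hearts. WT and OGT_TG hearts that share a title number lay on the same side: the GC-rich members were at 0.28 and 0.28 log2 in WT replicates 2 and 3 and at 0.19 and 0.17 in OGT_TG replicates 2 and 3, and at -0.21 and -0.08 in WT replicates 4 and 5 and at -0.33 and -0.50 in OGT_TG replicates 4 and 5. What the number marks is not given in the labels.

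**Figure D4:**
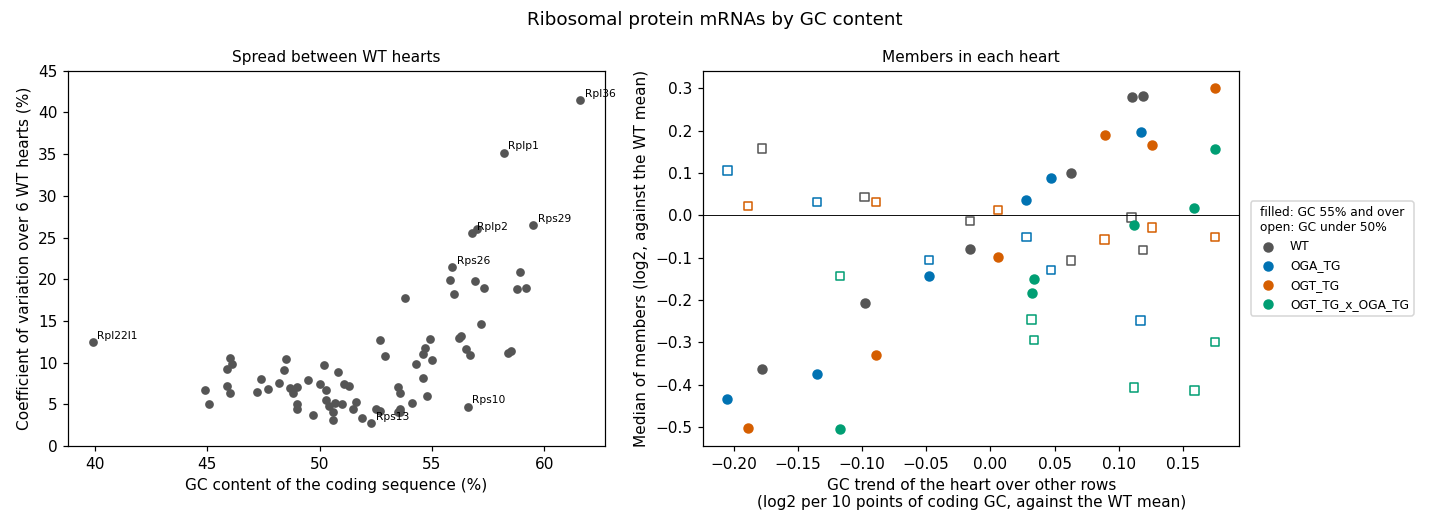
Left, coefficient of variation over the 6 WT hearts (%) against the GC content of the coding sequence (%), each point a tested member reported here; Rpl36 is at 41.5% and Rps13 at 2.75%. Right, the median of GC-rich members (filled) and GC-poor members (open) in each heart against the GC trend of that heart in all other annotated tested rows; filled points rise and open points fall along the axis, and double transgenic hearts lie below the others at a like trend.

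The calls were fewer where the spread was wide. Of the members under 50% GC, 16 of 21 fell in double transgenic hearts against WT, and of those from 50% to under 55%, 21 of 36 fell. Of the members at 55% and over, only Rps2 and Rps10 of 21 fell, with a median standard error of 0.16 log2 against 0.07 and 0.06 in the other groups. Over all tested rows with these GC contents, 13.7%, 13.5% and 7.61% were called lower. The median differences of the 3 groups of members were -0.29, -0.22 and -0.12 log2. With the GC and length trend of each heart taken off, an alternative added after the values were seen, 43 members fell and 1 rose, and the medians of the groups were -0.24, -0.20 and -0.13 log2. The median standard error of the GC-rich members was then 0.12 log2. How far the GC trend of a library bears on the differences between genotypes was otherwise not tested.

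Genes that work with the ribosomal proteins were also examined in that comparison, in which 11.4% of all rows were lower and 4.21% higher. Of 19 other tested RNAs with a TOP motif, some of them non-coding, 3 fell in double transgenic hearts against WT and 2 rose, with a median of -0.08 log2. Eef1b2, an exchange factor of elongation, fell by 0.39 log2 (SE 0.045, limma adjusted p = 2.99e-06), while Eef1a1, the factor it serves, rose by 0.90 (SE 0.07, adjusted p = 3.1e-08). Eef1a1 was at 683 FPKM in WT, 700 in OGA_TG, 1367 in OGT_TG and 1277 in double transgenic hearts on average. Of 75 tested genes of ribosome biogenesis, 6 fell and 2 rose, with a median of -0.03 log2. The snoRNP protein Nop10 fell by 0.48 log2 (SE 0.07, limma adjusted p = 5.08e-05), and Polr1a, the largest subunit of RNA polymerase I, by 0.32 (SE 0.06, adjusted p = 0.000488).

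In OGT_TG hearts, by contrast with the members, 19 biogenesis genes rose and 2 fell against WT, with a median of 0.11 log2. Of the 19 other TOP RNAs, 9 rose, with a median of 0.17. For all rows 25.2% were called higher in that comparison, a share close to that of 19 in 75. Rrp12, a factor of subunit export, rose by 0.81 log2 (SE 0.15, limma adjusted p = 0.000256), and Nhp2 by 0.49 (SE 0.10, adjusted p = 0.000887). Of 19 genes that control ribosomal protein synthesis, 3 fell in double transgenic hearts against WT, a share not far from the 11.4% of all rows. These were Sesn1, an inhibitor of mTORC1, by 0.46 log2 (SE 0.08, limma adjusted p = 0.000628), Eif4e, the cap-binding protein, by 0.41 (SE 0.11, adjusted p = 0.011) and Maf1, a repressor of RNA polymerase III, by 0.34 (SE 0.06, adjusted p = 0.000535). Larp1 was called lower in double transgenic hearts against OGT_TG, at -0.15 log2 (SE 0.045, adjusted p = 0.016). In that comparison 27.2% of all rows were called lower, and the median of all rows was -0.11 log2, close to the value of Larp1.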

How the data were processed

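RNA of whole hearts was sequenced as stranded poly(A)-selected libraries with paired reads, per the labels' protocols. The submitters' processing notes name FastQC, TopHat, SAMtools, StringTie and Cuffdiff 2.2.1 and the mouse build mm10. The values are FPKM per gene, as deposited by the authors in a single table of 19664 rows, of which 4 with missing values were left out. How FPKM were scaled between libraries is not given in the sources used here.

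Values were analysed as log2(FPKM + 1) with limma 3.58.1 (R 4.3.3, Python 3.11.15) in a model of genotype and sex over all 24 hearts, with moderated variances that follow the mean level. Rows with at least 1 FPKM in at least 6 hearts were tested, 12020 in all, and p-values were adjusted over all of them by the Benjamini-Hochberg method, with a call at an adjusted p under 0.05. The test was also run on simulated data that took the mean and spread of each row from these hearts. Replicates are separate hearts, and p-values measure the spread between them. The depth was estimated from the ratios between low values of a gene, since the table holds no counts; it gives no exact interval. The tested member with the fewest fragments had about 152 in its lowest heart at coding length.

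The number that opens the sample titles is shared by WT and OGT_TG hearts. OGA_TG and double transgenic hearts carry other numbers, which no other genotype has. In comparisons with them, genotype and title number cannot be told apart, and no block could be fitted. For all 4 numbers shared by WT and OGT_TG hearts, the deviations of these hearts from their group means were correlated, at 0.22, 0.57, 0.38 and 0.15. A fit with this replicate block was therefore added for OGT_TG minus WT. It held no sex term, since each of these numbers held hearts of a single sex. Alternatives covered the pseudocount, the filter, 4 scalings, the sex term, the samples in the fit, robust moderation, a stricter threshold and each heart left out. The coding length and GC content came from GENCODE M21 and covered 93% of tested rows. Taking off the GC and length trend of each heart was chosen after seeing the data. The members and lists were chosen with earlier results of these data known. Every member could be named. The others were named by size and call, up to 10 in each direction of a comparison, with the highest, lowest and most variable in WT, the paralogs and the stalk proteins. Some genes enter the counts and medians but are not reported here by name or drawn.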

Additional observations from a re-analysis of the deposited data

Results flagged for a closer look

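In 14 of 320 tested groups of 6 hearts, a single heart stood apart from the other 5 by more than Dixon's limit; chance alone flags about 1 in 20 groups. Among double transgenic hearts, replicate 3 was high for Rpl10a, at 203.6 FPKM against 165.9 to 178.0 in the others, for Rpl12, at 285.4 against 254.4 to 264.8, and for Rps16, at 294.7 against 232.2 to 249.4. Its summed FPKM of all members was 26837, against 23286 to 24410 in the other 5. Replicate 6 of the same genotype was high for Rpl39, at 303.7 FPKM against 235.6 to 259.7, and for Rps27a, at 394.5 against 281.0 to 320.6, and low for Rps10, at 241.0 against 280.8 to 299.8. These 2 hearts had the highest and the lowest GC trend of their genotype, at 0.18 and -0.12 log2 per 10 points of GC, and its part in these values was not tested.

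In WT hearts, replicate 1 had 570.6 FPKM of Rpl30 against 469.0 to 500.6 in the others. Replicate 6 had 496.9 FPKM of Rpl32 against 530.2 to 548.9, and replicate 3 had 16.84 FPKM of Rpl7l1 against 19.32 to 20.63. In OGA_TG hearts, replicate 6 had 79.66 FPKM of Rpl15 against 71.79 to 74.46, and replicate 1 had 56.4 FPKM of Rpl22 against 63.15 to 66.84. In OGT_TG hearts, replicate 2 had 222.9 FPKM of Rpl36a against 256.9 to 269.5. Replicate 4 had 1.001 FPKM of Rpl39l, against 0 to 0.1151 FPKM in the other 5 hearts.

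The difference that goes with the OGA transgene was not the same with and without the OGT transgene in 3 members by limma's interaction term. It was -0.363 log2 for Rpl10 (adjusted p = 0.018), -0.309 for Rpl22 (adjusted p = 0.036) and -0.302 for Rpl17 (adjusted p = 0.046). The share called was 3.85% of the members, below the 7.3% of all rows. Rpl22 lost its call without any 1 of 13 hearts and Rpl17 without any 1 of 18. Only the call of Rpl10 held with each heart left out and under all 4 other scalings.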

How the results depend on the processing

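The fall in double transgenic hearts kept its direction under all settings tried, but its extent depended on the scaling, and the values give no absolute amount of RNA. Against WT the 40 calls became 25 at an equal sum of FPKM, 22 after quantile normalization (median -0.146 log2) and 21 at an equal sum without transgene rows and members (median -0.143). Against OGT_TG the 43 calls became 19 with median-of-ratios scaling (median -0.098), and against OGA_TG the 28 calls became 17 after quantile normalization and 16 at an adjusted p under 0.01. For OGT_TG minus WT the 6 calls became 10 at an equal sum of FPKM, with median-of-ratios scaling (median -0.090) and after quantile normalization, and 11 at an equal sum without transgene rows and members. They became 3 with only the groups compared or at an adjusted p under 0.01. With the GC and length trend taken off they were 12, and also 12 with the replicate block added. The replicate block alone gave 5, and it changed no other call than those of Rpl4, Rps23 and Rps27a. For OGT_TG minus OGA_TG the 16 calls became 10 with median-of-ratios scaling, with only the groups compared and at an adjusted p under 0.01. The 3 interaction calls became 1 with median-of-ratios scaling, 0 at an adjusted p under 0.01 and 10 with the GC and length trend taken off, which also gave 1 call between the sexes. Where no cause is named, the cause was not tested.

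With each heart left out in turn, the count ranged from 36 to 44 for double transgenic minus WT (median -0.237 to -0.202), 39 to 47 minus OGT_TG (median -0.231 to -0.189) and 20 to 31 minus OGA_TG. It ranged from 4 to 8 for OGT_TG minus WT (median -0.038 to 0.017), 11 to 17 for OGT_TG minus OGA_TG and 1 to 11 for the interaction. It was 0 throughout for OGA_TG minus WT (median -0.098 to -0.065) and for sex. Over single members, 4546 values kept their call, 495 lost it and 0 changed sign. Most of these values come from the fits with a heart left out, and single settings differed widely. Median-of-ratios scaling kept 18 calls against OGT_TG and lost 25. An equal sum without transgene rows and members kept 21 calls against WT and lost 19, while a filter of 5 FPKM kept all 40. Depth limits Rpl39l, which lay near 0 in most hearts.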

Other observations

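The 4 members on the X chromosome, Rpl10, Rpl36a, Rpl39 and Rps4x, were singled out after their values were seen. All 4 fell in double transgenic hearts against WT, OGT_TG and OGA_TG, with medians of -0.38, -0.39 and -0.31 log2. Over the 345 tested rows on that chromosome 14.2%, 31.6% and 14.2% fell in the same comparisons. Of all 78 tested members, these 4 included, 39, 43 and 27 fell there, with medians of -0.22, -0.22 and -0.13 log2. Rpl36a, Rpl39 and Rps4x are among the 21 GC-poor members, of which 16, 19 and 13 fell. Whether the 4 genes differ from the other members because of their chromosome was not tested. The comparisons share the double transgenic hearts.

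Ribosomal protein genes named outside the rule gave no call against WT in any genotype. Fau, which encodes a ubiquitin-like protein fused to a small subunit protein, was at 166 ± 23.7 FPKM in WT and 171 ± 33.9 FPKM in double transgenic hearts (SD, n = 6 each). Gnb2l1, the scaffold protein of the small subunit, was at 239 ± 21.9 and 218 ± 17.6 FPKM, and Rpl36al, a paralog of Rpl36a, at 178 ± 8.68 and 168 ± 14.4 FPKM. The groups overlapped in each of these genes.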
